A study of Canis lupus familiaris with 17 samples.

Results

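Fibronectin, its integrin receptors and their companions in matrix adhesion were followed through 4 groups of canine soft tissue sarcomas. The 9 genes, of 780 endogenous probes on the nCounter Canine IO panel, were FN1, NPNT, ADAMTS2, ITGB1, ITGA5, NRP1, THY1, LGALS3 and PTK2. Each was found as the probe bearing that name. They were chosen by their measured levels across the 4 groups in earlier results of these same data, so every difference of a member between the 4 groups is given as a description, without a p-value.

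The tumours were spontaneous sarcomas of pet dogs, 17 in all and each from a different dog. Interleukin-2 and interleukin-12 fusion proteins that bind collagen, and so are held in the matrix, were injected into 10 of them. Of these, 3 tumours were removed 2 days after 1 dose (called day 2 here), 3 were removed 8 days after 1 dose (day 8), and 4 were given a second dose on day 6 and removed 2 days after it (second dose). The other 7 were archived tissue of untreated sarcomas, so archiving cannot be told apart from the lack of treatment. All RNA came from formalin-fixed, paraffin-embedded tissue. By type, the day 2 group held peripheral nerve sheath tumours (A and C) and a myxosarcoma (B). On day 8 they were 1 perivascular wall tumour (A) and 2 nerve sheath tumours. After the second dose they were 3 nerve sheath tumours and 1 fibrosarcoma (D). The untreated tumours were 4 perivascular wall tumours (A, C, D and E) and 3 nerve sheath tumours (B, F and G). Age, sex and breed of the dogs were not analysed here.

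Fibronectin is a large glycoprotein that cells assemble into fibrils around themselves. They hold it through integrins, receptors made of an alpha and a beta chain, of which the pair of ITGA5 and ITGB1 is the classical fibronectin receptor. An engaged integrin gathers a focal adhesion, where focal adhesion kinase (PTK2) passes the signal on to growth and migration pathways. In sarcomas, tumours of connective tissue lineage, the malignant cells themselves as well as fibroblasts can lay down this matrix.

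The samples were not equal in RNA signal. The sum of endogenous counts lay between 126997 and 1752729 per sample, and 2 samples stood apart as low: day 2 tumour C with 126997 and second-dose tumour D with 205118. The geometric mean of the 20 housekeeping probes was 280, 281 and 61.9 on day 2, 526.5 to 709 on day 8, 55.1 to 643 after the second dose and 489 to 686 in untreated tumours. The choice of scaling therefore matters for each level. A normalized count below is the raw count divided by the sample's housekeeping geometric mean and multiplied by the mean of these over samples, unless TMM, a scaling that centres the bulk of the probes, is named. Over all 724 probes that were tested, the median log2 difference from untreated was 1.23 on day 2 with housekeeping scaling and 0.25 with TMM. The same medians were 0.09 and -0.03 on day 8, and 0.63 and -0.05 after the second dose. Since these are bulk samples, fewer cells of a type and less RNA per cell cannot be told apart in any result below.

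FN1, which encodes fibronectin, was lower on day 2. The 3 day 2 tumours had 32355, 5311 and 9848 normalized counts. Tumours of day 8 had 36768, 26681 and 30468, and those of the second dose 41612, 19855, 23017 and 32696. Among untreated tumours the lowest had 20466, the median was 49214 and the highest had 85206. Tumours B and C of day 2 lay below all others of the study, while tumour A lay above 2 of the 7 untreated ones, so these groups overlapped. The log2 difference from untreated was -1.63 (SE 0.62) on day 2, -0.64 (SE 0.58) on day 8 and -0.74 (SE 0.53) after the second dose. With TMM it was -2.60 (SE 0.66), -0.63 (SE 0.59) and -1.21 (SE 0.54), and then all 3 day 2 tumours lay below all untreated ones.

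NPNT encodes nephronectin, a matrix protein that binds the integrin of alpha 8 and beta 1 chains. It was the faintest of the 9 genes, with raw counts from 4 to 91. In day 2 tumours it read 72.6, 133 and 242 normalized counts, above every untreated tumour (36.0 to 67.3, median 46.7). The raw counts behind the day 2 values were only 42, 77 and 31, against 48 to 85 raw counts in untreated tumours, so the higher normalized level went with lower housekeeping counts and not with more counts of the probe itself. Day 8 tumours had 62.1, 64.8 and 65.2 normalized counts, and second-dose tumours had 47.4, 42.4, 56.5 and 35.1. In second-dose tumours B and D the raw count did not pass the mean plus 2 SD of the negative control probes. The log2 difference on day 2 was 1.51 (SE 0.35) with housekeeping scaling and 0.51 (SE 0.43) with TMM. It turned to -0.072 with TMM when the 2 low-count samples were left out.

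ADAMTS2 encodes the enzyme that trims the amino-terminal propeptide from fibrillar procollagens, so that the collagens can form fibrils. It did not share the day 2 pattern of fibronectin. Day 2 tumours had 2388, 1429 and 1187 normalized counts, day 8 tumours had 1056, 1064 and 2257, and second-dose tumours had 1301, 1187, 1670 and 1273. Untreated tumours ran from 289 through a median of 886 to 2349, a spread that enclosed all treated tumours but day 2 tumour A. The log2 difference was 0.55 (SE 0.50) on day 2, 0.36 (SE 0.50) on day 8 and 0.26 (SE 0.46) after the second dose. With TMM it was -0.38 (SE 0.48), 0.30 (SE 0.46) and -0.19 (SE 0.43), so its direction on day 2 and after the second dose depended on the scaling.

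**Figure D1:**
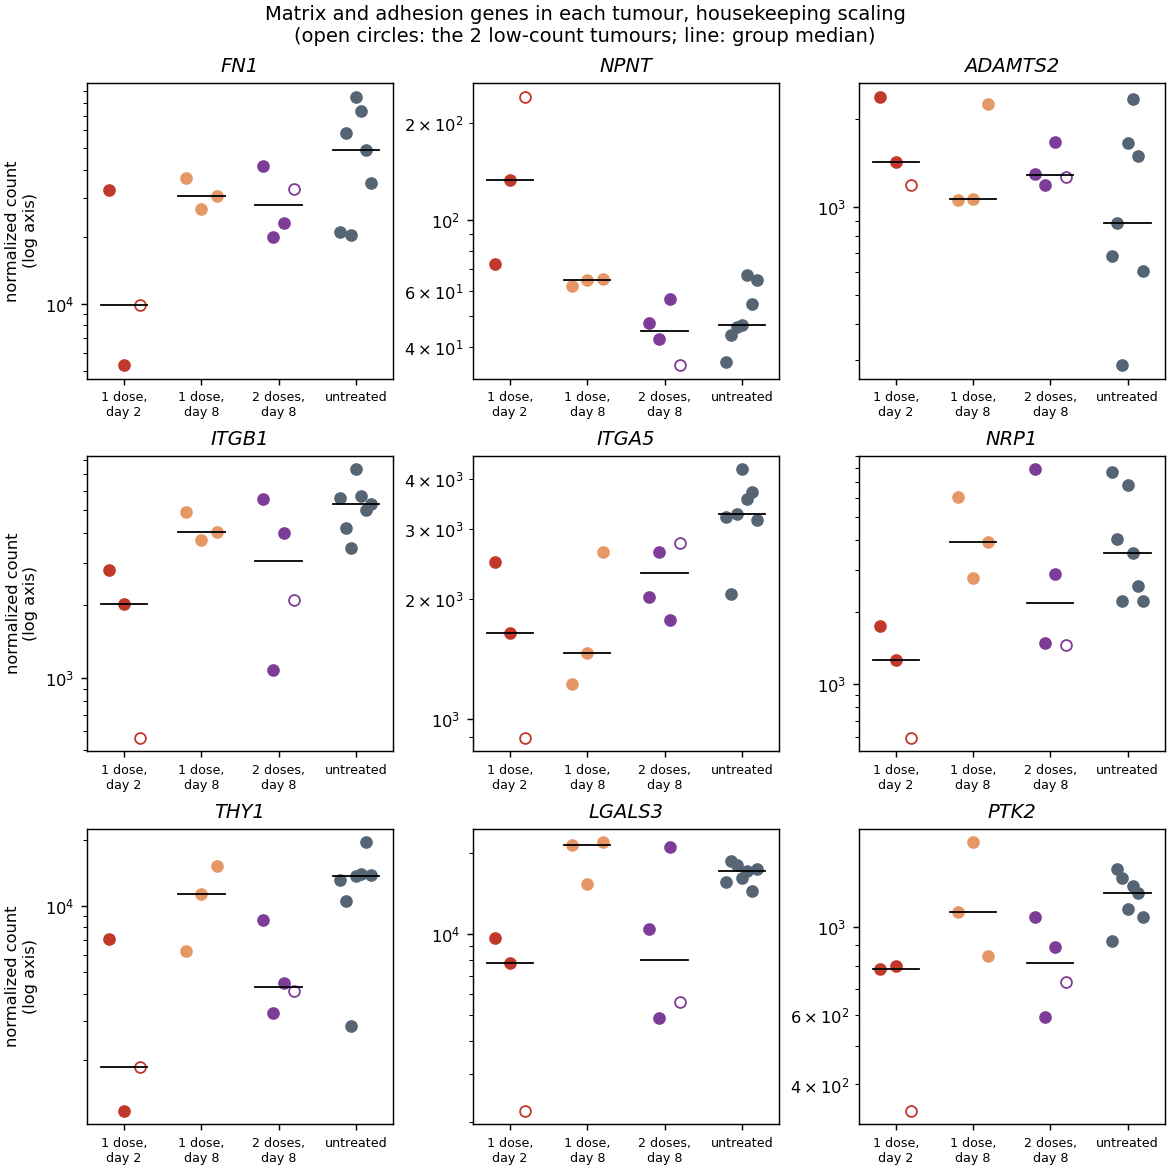
Normalized counts of the 9 genes in each tumour (housekeeping scaling, log axis), by group, with a line at the group median and open circles for the 2 low-count tumours. In ITGB1, NRP1, LGALS3 and PTK2 all 3 day 2 tumours lie below all 7 untreated tumours, while in NPNT they lie above them.

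The ratio of FN1 to ADAMTS2 within a tumour does not depend on any scaling, since both probes are counted in the same tube. This ratio, like the others below, was chosen after the values were seen, and its absolute size carries no meaning because probes differ in efficiency. On the log2 scale it was 3.76, 1.89 and 3.05 in day 2 tumours. It ran from 3.75 to 5.12 on day 8, from 3.79 to 4.9995 after the second dose, and from 4.95 to 6.14 in untreated tumours. The day 2 and untreated groups did not overlap. FN1 had been seen to be lower on day 2 and ADAMTS2 had not, so this separation is only a description. Of single probes, 30.9% lay above and 2.9% below in this comparison with housekeeping scaling (16% and 15.2% with TMM). The share among ratios of other probes was not computed. Mean ratios were 2.90 ± 0.94 on day 2 (SD, n = 3), 4.51 ± 0.69 on day 8 (SD, n = 3), 4.38 ± 0.56 after the second dose (SD, n = 4) and 5.52 ± 0.53 in untreated tumours (SD, n = 7). Each treated mean was thus below the untreated one, with day 2 lowest.

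ITGB1 encodes the beta 1 integrin chain, shared by receptors for fibronectin, collagens and laminins. Day 2 tumours had 2801, 2018 and 562 normalized counts. Day 8 tumours had 4873, 3741 and 4035, and second-dose tumours had 5534, 1073, 3999 and 2107. In untreated tumours the range was 3474 to 7355 with a median of 5263. No day 2 tumour reached the lowest untreated one. On day 8 all 3 were within the untreated range, and after the second dose tumours A and C were within it while B and D were below. The log2 difference was -1.54 (SE 0.54) on day 2, -0.31 (SE 0.50) on day 8 and -0.71 (SE 0.46) after the second dose, and -2.59 (SE 0.69), -0.40 (SE 0.60) and -1.12 (SE 0.56) with TMM.

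ITGA5 encodes the alpha 5 chain that pairs with beta 1 to bind fibronectin. Day 2 tumours had 2471, 1646 and 898 normalized counts, and day 8 tumours had 1224, 1465 and 2627. The second-dose tumours had 2017, 2625, 1771 and 2757, against untreated values of 2062 to 4223 with a median of 3257. From the fit of day 8 against day 2 its log2 difference was 0.08 (SE 0.44) with housekeeping scaling and 0.96 (SE 0.47) with TMM, and with TMM all 3 day 8 tumours lay above all 3 day 2 tumours. The log2 difference was -0.98 (SE 0.39) on day 2, -0.90 (SE 0.39) on day 8 and -0.53 (SE 0.35) after the second dose. With TMM the differences were -2.05 (SE 0.44) on day 2, -1.09 (SE 0.41) on day 8 and -1.23 (SE 0.37) after the second dose. The overlap with the untreated group under housekeeping scaling rested on untreated tumour B at 2062, as the other 6 untreated tumours had 3158 or more.

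The ratio of ITGA5 to ITGB1 counts, also free of scaling and chosen after its values were seen, is given as a description. Its log2 value was -0.29 to 0.68 on day 2, -1.99 to -0.62 on day 8, -1.46 to 1.29 after the second dose and -1.03 to -0.09 in untreated tumours. The day 2 and day 8 ranges did not overlap, whereas each overlapped the untreated and the second-dose range. Single probes also often separated day 8 from day 2, 5.11% lying above and 38% below with housekeeping scaling. With TMM these shares were 16.6% and 23.2%. The share among ratios of other probes was not computed. After the second dose the 2 tumours with low ITGB1, B and D, had the positive ratios. Of the 4 ratios computed, the other two overlapped between day 2 and untreated tumours. LGALS3 over FN1 was -2.16 to 0.56 on day 2 and -2.39 to -0.18 in untreated tumours. THY1 over FN1 was -2.40 to -2.17 on day 2 and -2.84 to -0.68 in untreated tumours.

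NRP1 encodes neuropilin-1, a co-receptor for semaphorins and vascular endothelial growth factor that also acts with the alpha 5 beta 1 integrin. Its counts were 1738, 1259 and 594 on day 2, all below the untreated range of 2225 to 7708 (median 3515). On day 8 they were 6080, 2785 and 3935, inside that range. Second-dose tumours split, with 7922 in tumour A, above every untreated tumour, 2871 in C, and 1486 and 1449 in B and D, below all of them. The log2 difference was -1.80 (SE 0.64) on day 2, 0.04 (SE 0.58) on day 8 and -0.28 (SE 0.53) after the second dose. Under TMM these were -2.87 (SE 0.80), -0.06 (SE 0.68) and -0.70 (SE 0.63).

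**Figure D2:**
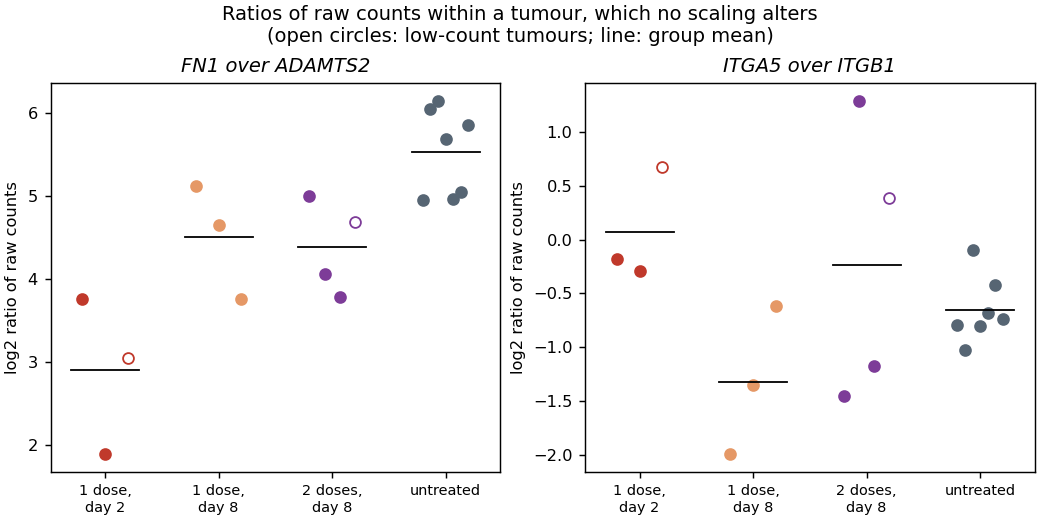
Log2 ratios of raw counts within each tumour for FN1 over ADAMTS2 and ITGA5 over ITGB1, with a line at the group mean and open circles for the low-count tumours. The FN1 over ADAMTS2 ratio is 1.89 to 3.76 on day 2 and 4.95 to 6.14 in untreated tumours, without overlap. Both ratios were chosen after their values were seen.

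THY1 encodes CD90, a surface glycoprotein of fibroblasts and mesenchymal cells that binds integrins on other cells. Of the 9 genes it had the most negative day 2 difference, -1.89 (SE 0.65), and the most negative second-dose difference, -1.28 (SE 0.56). Day 2 tumours had 7113, 1181 and 1867 normalized counts, day 8 tumours had 6283, 11343 and 15160, and second-dose tumours had 8681, 3284, 4484 and 4118. Untreated tumours had a median of 13611, a highest value of 19523 and a lowest of 2855 in tumour C. The other 6 untreated tumours had 10568 or more, above every day 2 and every second-dose tumour. The day 8 difference was -0.20 (SE 0.59). Under TMM the 3 differences were -2.95 (SE 0.74) on day 2, -0.36 (SE 0.63) on day 8 and -1.76 (SE 0.61) after the second dose.

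LGALS3 encodes galectin-3, a lectin that binds sugars on fibronectin, laminin and integrins, and that macrophages also make in quantity. The untreated tumours were uniform, from 14448 to 18653 normalized counts with a median of 17143. Against these the day 2 tumours had 9679, 7823 and 2202, all of them below. Day 8 tumours had 21510, 15334 and 21989, and second-dose tumours had 10390, 4851, 21032 and 5584. Thus 2 of 3 day 8 tumours and second-dose tumour C lay above the untreated range, and the other second-dose tumours lay below it. The log2 difference was -1.35 (SE 0.53) on day 2, 0.22 (SE 0.48) on day 8 and -0.68 (SE 0.46) after the second dose. It was -2.42 (SE 0.70), 0.09 (SE 0.60) and -1.08 (SE 0.58) under TMM.

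PTK2, focal adhesion kinase, showed the smallest day 2 difference among the members that were called lower. Its counts were 784, 799 and 344 on day 2, 1095, 1646 and 846 on day 8 and 1063, 592, 894 and 729 after the second dose, against 923 to 1410 (median 1225) in untreated tumours. All 3 day 2 tumours, 1 day 8 tumour and 3 second-dose tumours lay below the untreated range. The log2 difference was -0.89 (SE 0.33) on day 2, 0.01 (SE 0.32) on day 8 and -0.54 (SE 0.29) after the second dose, and -1.92 (SE 0.45), -0.10 (SE 0.41) and -1.06 (SE 0.38) with TMM.

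FN1, ITGB1, ITGA5, LGALS3, THY1, PTK2 and NRP1 thus had their lowest group means on day 2. By the edgeR quasi-likelihood test at a Benjamini-Hochberg adjusted p under 0.05 over all 724 probes, these 7 of the 9 genes were called lower on day 2 with housekeeping scaling, where 2.62% of all tested probes were called lower. NPNT was called higher, as were 47.8% of all tested probes, and ADAMTS2 was not called. With TMM the same 7 genes were called lower, beside 15.7% of all probes, and NPNT was not called, beside 23.5% called higher. All 3 day 2 tumours lay below all untreated tumours for 4 members with housekeeping scaling (2.9% of all probes) and for 6 with TMM (15.2%). They lay above for NPNT with housekeeping scaling (30.9% of all probes) and for no member with TMM (16%). These counts describe how the set was drawn up and are not evidence about it. Taken relative to the median of all tested probes, the 7 differences ran from -3.12 to -2.12 with housekeeping scaling and from -3.20 to -2.16 with TMM.

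**Figure D3:**
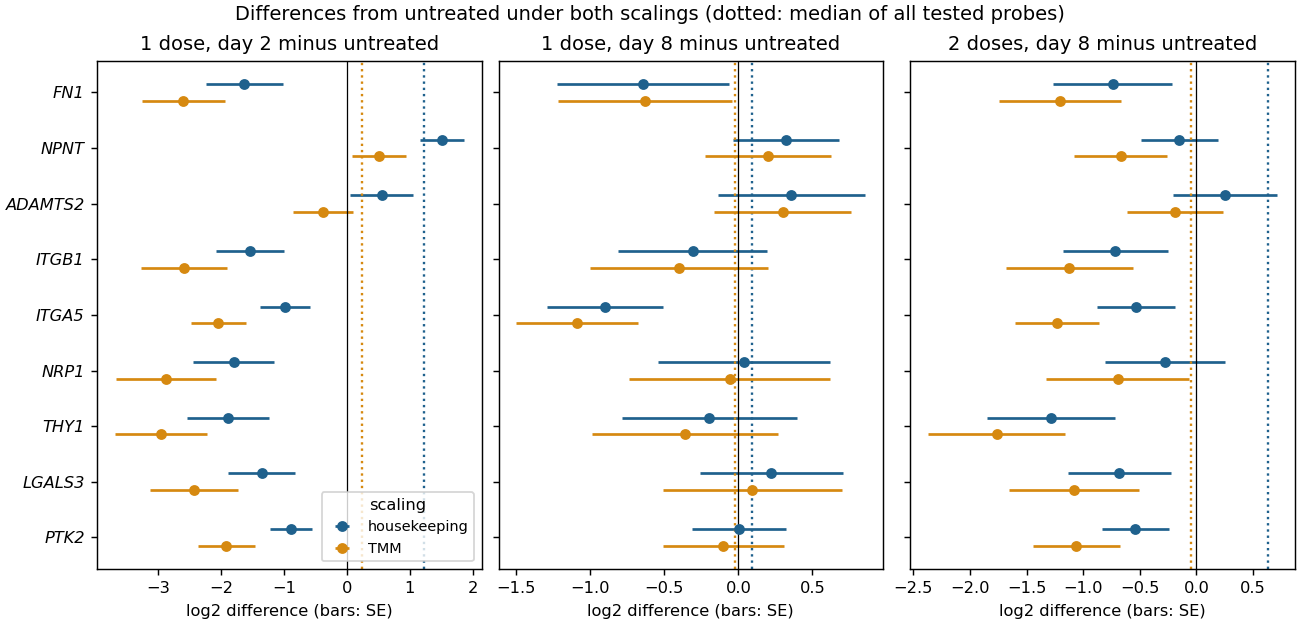
Log2 differences from untreated for the 9 genes on day 2, on day 8 and after the second dose, with housekeeping (blue) and TMM (orange) scaling; bars are SE and dotted lines are the median of all tested probes. On day 2 the points of 7 genes lie between -0.89 and -1.89 with housekeeping scaling and between -1.92 and -2.95 with TMM, and on day 8 most points lie near 0.

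The day 2 calls under housekeeping scaling leaned on single tumours. Without day 2 tumour C, the low-count sample, 0 members and 7 of 722 probes were called lower. The log2 differences of the 7 genes then ran from -0.59 to -1.59. Without tumour B only PTK2 of the members was called lower, beside 3 of 723 probes. Without tumour A all 7 were, beside 22 of 721 probes. Leaving out 1 untreated tumour left from 3 (without E, 9 of 722 probes) to 5 (without G, 13 of 724 probes) members called lower. Background subtraction left 3 (12 of 724 probes), and the replicate letter as a block left 1, NRP1 (9 of 724 probes). With sarcoma type as a covariate 0 members and 0 of 724 probes were called lower. The 7 genes then had differences from -1.004 to -2.05. Among nerve sheath tumours alone, 2 of day 2 against 3 untreated, 0 members were called, beside 0 of 705 probes lower and 37 higher. The 7 genes there had differences from -0.82 to -1.71. With TMM and without both low-count samples, a setting chosen after seeing the data, the same 7 genes were called lower. In that setting 106 of 722 probes were called lower. With TMM and sarcoma type together, also chosen after seeing the data, only ITGA5 and THY1 of the members were, beside 4 of 724 probes. In all of these settings the 7 genes kept negative differences.

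On day 8 no member was called, and none of the 724 probes was (0%) under either scaling, although 33 probes with housekeeping scaling and 49 with TMM had an unadjusted edgeR p under 0.05. Every member overlapped the untreated group on day 8, where the 3 tumours lay above all untreated ones for 2.62% of all probes and below for 0.414% with housekeeping scaling, and for 2.21% and 0.967% with TMM. After the second dose 0 members were called with housekeeping scaling (0.414% of probes called lower, 33.3% higher). Leaving out second-dose tumour A (14 of 723 probes called lower) or untreated tumour C (6 of 724) brought a call of THY1 as lower. Leaving out second-dose tumour C (13 of 722) brought a call of LGALS3 as lower. With TMM the second-dose calls were ITGA5, THY1 and PTK2, all lower, beside 4.97% of all probes called lower and 21.5% higher. No member separated fully from the untreated group after the second dose. Of all probes 11.3% lay above and 0.414% below with housekeeping scaling, and 10.9% and 1.1% with TMM.

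Between treated groups the members were mostly higher at the later times than on day 2. From the fit of day 8 against day 2, 0 members were called with housekeeping scaling, beside 0.414% of probes called higher and 19.2% called lower. With TMM 4 were called higher, LGALS3 by 2.52 (SE 0.76), THY1 by 2.59 (SE 0.78), PTK2 by 1.82 (SE 0.50) and NRP1 by 2.81 (SE 0.86), beside 3.73% of probes called higher and 7.46% lower. The day 8 tumours lay above the day 2 tumours for ITGB1, LGALS3, PTK2 and NRP1 with housekeeping scaling, and for these and FN1, ITGA5 and THY1 with TMM, beside 5.11% and 16.6% of all probes. NPNT was the reverse with housekeeping scaling, lower in all 3 day 8 tumours, as were 38% of all probes (23.2% with TMM, where NPNT overlapped). For the second dose against the first at 2 days, 0 members and 0% of probes were called by edgeR, while 88 probes with housekeeping scaling and 84 with TMM had an unadjusted p under 0.05. The largest member differences there were NRP1 at 1.52 (SE 0.67) and NPNT at -1.66 (SE 0.41) with housekeeping scaling. For the second dose against day 8, 0 members were called with housekeeping scaling (9.39% of probes higher, 0% lower) or TMM (6.63% higher, 1.1% lower). With housekeeping scaling 8 of 9 differences were negative, from -1.09 in THY1 to 0.37 in ITGA5. The comparisons with untreated share the 7 untreated tumours, and those among treated groups share treated ones, so their agreement is not independent.

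Tumour type was a comparison that the choice of genes had not used. Among untreated tumours, 4 perivascular wall tumours were set against 3 nerve sheath tumours, in an edgeR model of their own over 676 probes. No member was called: the adjusted p was 0.998 for each of the 9, and 0 probes were called (0%), while 27 had an unadjusted p under 0.05. The largest member difference was in NRP1, with 5071 ± 2620 normalized counts in perivascular wall tumours (SD, n = 4) and 2950 ± 971 in nerve sheath tumours (SD, n = 3), a log2 difference of 0.78 (95% interval -0.40 to 1.97). For FN1 the means were 49957 ± 34090 in perivascular wall tumours (SD, n = 4) and 47497 ± 11793 in nerve sheath tumours (SD, n = 3), a difference of 0.07 (95% interval -1.32 to 1.47). The narrowest interval was that of PTK2, -0.72 to 0.55, which still allows differences in both directions. Exact two-sided permutation tests gave p from 0.4 to 1, where 4 against 3 tumours cannot go below 0.0571. The spread between these 7 tumours thus limits what could be seen of type.

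The rest of the matrix and adhesion machinery on the panel was read from a list of 175 genes, of which 51 were on the panel and all 51 were tested. On day 2, 6 of the 51 were called higher and 2 lower with housekeeping scaling, while with TMM 0 were called higher and 22 lower. As shares of the list these were 11.8% higher and 3.92% lower, beside 47.8% and 2.62% of all tested probes, and with TMM 0% higher and 43.1% lower, beside 23.5% and 15.7%. The median of the list was -0.10 with housekeeping scaling and -1.09 with TMM, against 1.23 and 0.25 for all tested probes. Among matrix proteins 0 of 4 were called with housekeeping scaling and 3 of 4, COL1A1, COL3A1 and THBS1, were lower with TMM. COL1A1, a chain of type I collagen, had -1.51 (SE 0.75) and -2.57 (SE 0.84) under the 2 scalings. Of matrix receptors, 2 of 14 were higher with housekeeping scaling and 4 of 14 (ITGB3, CD47, DDR1 and ITGAV) lower with TMM. Of the focal adhesion and actin signalling genes downstream of PTK2, 1 of 6 was higher with housekeeping scaling and 5 of 6, PIK3R1, AKT1 and SRC among them, were lower with TMM. VEGFA, a ligand of neuropilin-1, was lower with TMM at -1.21 (SE 0.41), the 1 call among 3 neuropilin partners. The genes called with TMM alone were picked out after their values were seen.

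The genes called higher on day 2 with housekeeping scaling were CTSS, PLAUR, SELE, ITGA2B, PIK3CA and, named after its value was seen, ITGA1 at 0.90 (SE 0.37). ITGA1 was thus below the median of all tested probes, 1.23, and it was at -0.10 with TMM. CTSS, the elastin-cutting lysosomal protease cathepsin S of antigen-presenting cells, had 10498 ± 7378 normalized counts on day 2 (SD, n = 3) and 2102 ± 1779 in untreated tumours (SD, n = 7), a log2 difference of 2.32 (SE 0.66, edgeR adjusted p = 0.00873). PLAUR, the urokinase receptor, had 2.04 (SE 0.70, edgeR adjusted p = 0.0232). SELE, the endothelial selectin that slows passing leukocytes, had 1.66 (SE 0.65, edgeR adjusted p = 0.0432), and ITGA2B, the platelet integrin chain, 1.60 (SE 0.35, edgeR adjusted p = 0.00169). ITGA2B was at the level of the negative controls, with raw counts of 12 to 29 on day 2, above the mean plus 2 SD of these controls in 1 of 3 tumours, and 17 to 28 in untreated tumours, above it in 4 of 7. SELE had raw counts of 30 to 38 on day 2, above that level in 2 of 3 tumours, and 38 to 76 in untreated tumours. For both, as for NPNT, the higher normalized level went with lower housekeeping counts and not with more counts of the probe. PIK3CA, a catalytic subunit of phosphoinositide 3-kinase, had 1.22 (SE 0.37, edgeR adjusted p = 0.0125), a rise no larger than the median of all probes. With TMM none of the 6 was called, and those of CTSS and PLAUR were 1.40 and 1.17.

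Both genes called lower on day 2 with housekeeping scaling were cell-cell adhesion genes, and TMM also called them lower. CLDN1, a tight junction protein, had 102 to 912 normalized counts on day 2, below the 1242 to 16498 of untreated tumours, with a log2 difference of -3.38 (SE 1.14, edgeR adjusted p = 0.0225) and -4.41 with TMM. NCAM1, the neural cell adhesion molecule, had 22.5 to 133 on day 2, not above the negative controls in any day 2 tumour, and 124 to 678 in untreated tumours. Its fitted difference, whose size is uncertain because the day 2 counts are at background, was -2.62 (SE 1.00, edgeR adjusted p = 0.0379), and -3.69 with TMM. Without day 2 tumour C, 4 of the 51 genes were called in place of 8, beside 253 of 722 probes higher and 7 lower. With sarcoma type as a covariate 1 was, beside 135 of 724 probes called higher. With that covariate 0 of 724 probes were called lower, and among nerve sheath tumours alone 0 of 705. Neither CLDN1 nor NCAM1 was thus called lower in these 2 settings.

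**Figure D4:**
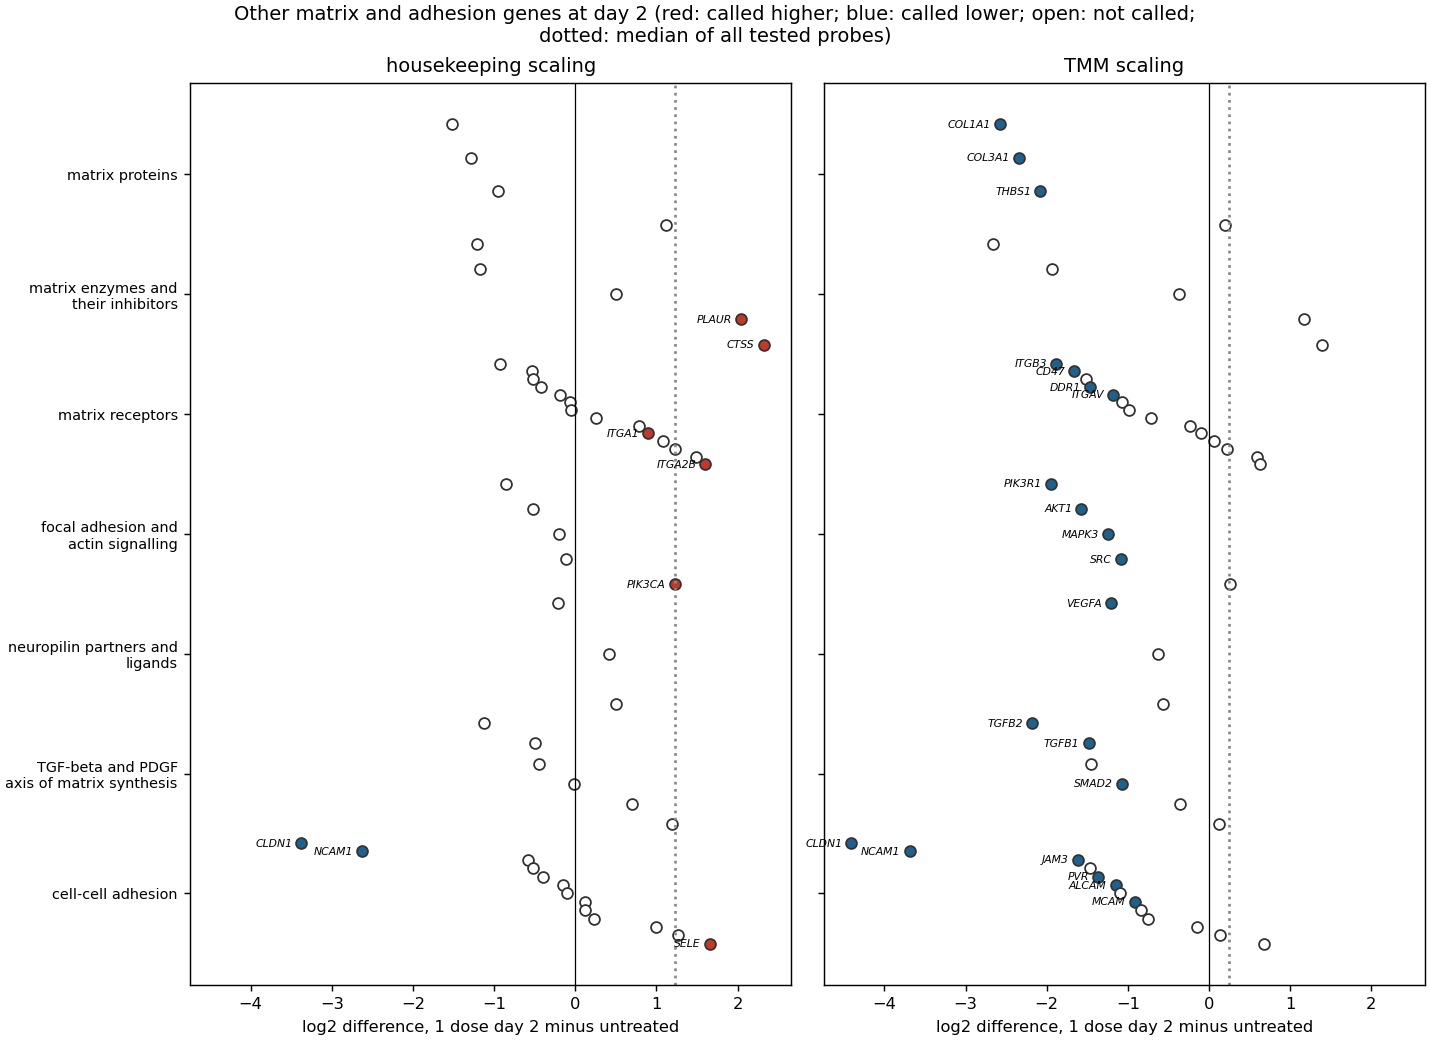
Log2 differences of the other matrix and adhesion genes on day 2 against untreated, by role, with housekeeping scaling (left) and TMM (right); red points were called higher, blue lower, and the dotted line is the median of all tested probes. With housekeeping scaling 6 genes are red and 2 blue, and with TMM the genes called are all blue.

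After the second dose 2 of the 51 genes (3.92%) were called, both higher, beside 33.3% of all tested probes called higher and 0.414% lower. CTSS had 15485 ± 10675 normalized counts after the second dose (SD, n = 4) and 2102 ± 1779 in untreated tumours (SD, n = 7), a difference of 2.88 (SE 0.63, edgeR adjusted p = 0.00187) that was also called with TMM at 2.11. SELE had 1.88 (SE 0.59, edgeR adjusted p = 0.0194) and was not called with TMM at 1.01. Its normalized counts were uneven, from 38.3 to 411 after the second dose and from 26.8 to 63.3 in untreated tumours. The raw counts after the second dose ran from 9 to 252, and in tumour D SELE did not pass the mean plus 2 SD of the negative controls. With TMM 5 genes were called lower, COL1A1, ITGA6, DDR1, SRC and MCAM, named after their values were seen; that is 9.8% of the list, beside 4.97% of all probes. With the replicate letter as a block, 1 gene was called, beside 196 of 724 probes called higher and 1 lower. Among the leave-one-out fits the count ran from 1 without second-dose tumour B to 6 without tumour A. It was 5 without tumour C and 4 without untreated tumour B or D. Over all probes, 151 of 721 were called higher and 1 lower without second-dose tumour B, and 271 of 723 and 14 without tumour A. On day 8 none of the 51 was called.

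For day 8 against day 2, 2 of the 51 were higher (3.92%, beside 0.414% of all probes) and 4 lower (7.84%, beside 19.2%) with housekeeping scaling. CLDN1 was higher by 3.85 (SE 1.24, edgeR adjusted p = 0.0426), with 6464 to 8243 normalized counts on day 8 and 102 to 912 on day 2. The log2 differences of the lower genes were -3.27 for PLAUR, -2.21 for SMAD3, a transducer of TGF-beta signals, -1.81 for ITGA2B and -1.38 for PIK3CA. The median of all tested probes in this comparison was -1.13 with housekeeping scaling and -0.28 with TMM. ITGA2B did not pass the mean plus 2 SD of the negative controls in any day 8 tumour (raw counts of 17 to 27) and did so in 1 of 3 day 2 tumours, so the size of its difference is uncertain. CLDN1 and PLAUR were also called with TMM, while SMAD3, ITGA2B and PIK3CA were not. Leaving out any 1 of the day 8 tumours ended all 6 calls, and the count was 2 without day 2 tumour B and 1 without tumour C. None of the 51 was called for the second dose against the first, or for the second dose against day 8 with housekeeping scaling, where TMM called ALCAM lower.

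Within groups the 9 genes tended to vary together over the 17 tumours, but less so among the 7 untreated tumours alone. Taken as deviations of log2 TMM counts from the 4 group means over 17 tumours, 34 of the 36 pairs of members had a positive Pearson r, with a median of 0.42. The median over all pairs of tested probes was 0.003, with 131618 of 261726 pairs positive. Without the 2 low-count samples the members' median was 0.41, and among the 7 untreated tumours alone it was 0.15. Single pairs in untreated tumours ran from -0.83 (PTK2 with ADAMTS2) to 0.81 (LGALS3 with PTK2). There FN1 was negative with PTK2 (-0.83), LGALS3 (-0.77), ITGA5 (-0.42), NPNT (-0.21), NRP1 (-0.10) and ITGB1 (-0.005). It was positive there only with THY1 and ADAMTS2. The tightest pairs over 17 tumours were among ITGB1, LGALS3, PTK2 and NRP1, led by ITGB1 with LGALS3 (0.87), ITGB1 with NRP1 (0.85) and LGALS3 with PTK2 (0.81). In the 7 untreated tumours alone these pairs had 0.24, 0.65 and 0.81. The other pairs of these genes had 0.12 for LGALS3 with NRP1, -0.32 for ITGB1 with PTK2 and -0.34 for PTK2 with NRP1. A second knot joined FN1, THY1 and ADAMTS2, with 0.70 for FN1 and THY1, 0.69 for THY1 and ADAMTS2 and 0.62 for FN1 and ADAMTS2. Its values in untreated tumours alone were 0.40, 0.69 and 0.79 in the same order. Over 17 tumours NPNT had its highest values with PTK2 (0.30), LGALS3 (0.28) and ITGB1 (0.21), but without the 2 low-count samples these were 0.64, 0.65 and 0.58. ITGA5 was nearest to its partner chain ITGB1 over 17 tumours (0.60), whereas without those samples it had 0.40 with ITGB1 and 0.41 with THY1. All values share the tumours' scaling factors and RNA quality and are given as a description.

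**Figure D5:**
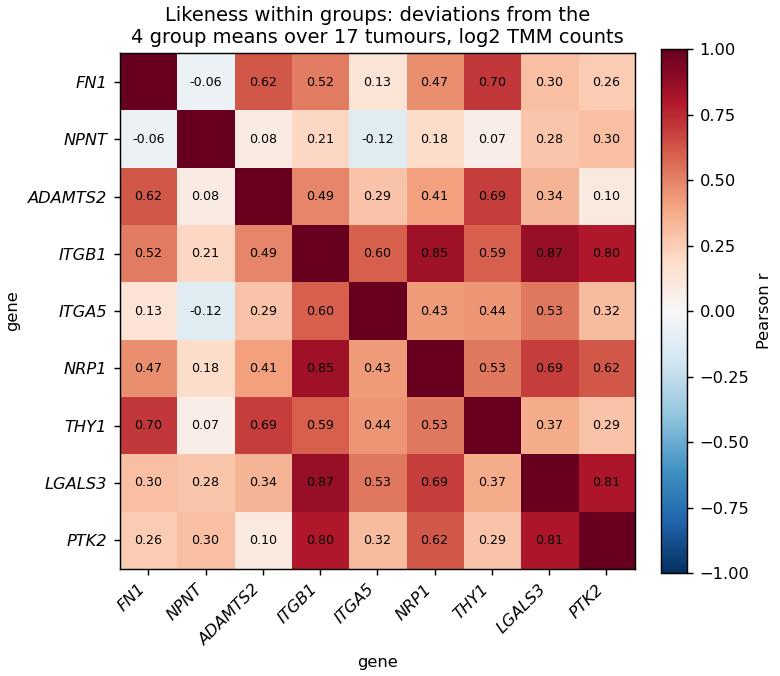
Pearson r between the 9 genes, from deviations of log2 TMM counts from the 4 group means over 17 tumours; red is positive. ITGB1, NRP1, LGALS3 and PTK2 form 1 block of high values and FN1, THY1 and ADAMTS2 another, while the row of NPNT is pale over these 17 tumours.

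The other probes nearest to each member by this measure, over 17 tumours, were as follows. FN1 was nearest to VCAM1 (r = 0.77), an adhesion receptor for leukocytes, then to CD59 (0.68) and PDPN (0.58). In the 7 untreated tumours alone the values were 0.72 for VCAM1, 0.44 for CD59 and 0.35 for PDPN. ADAMTS2 was nearest to COL3A1 (0.72), THY1 to the tetraspanin CD81 (0.87) and ITGA5 to CD47 (0.79), a partner of integrins at the cell surface. ITGB1 was nearest to S100A10 (0.98), with 0.80 in untreated tumours alone. NRP1 was nearest to NRAS (0.89), LGALS3 to ATG5 (0.94) and PTK2 to STK11 (0.92). NPNT was nearest to AIRE (0.93), another probe with low counts. In untreated tumours alone NRP1 had 0.56 with NRAS and NPNT had 0.64 with AIRE. The other members had from 0.71 (ADAMTS2) to 0.84 (PTK2) with their nearest probe.

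The levels of markers of other cells also differed between groups. Their day 2 counts stand beside 47.8% of all tested probes called higher and 2.62% lower with housekeeping scaling, and 23.5% and 15.7% with TMM. On day 2, 7 of 8 T cell markers were called higher with housekeeping scaling and 5 with TMM. Their summed level was 1560 to 2108 normalized counts on day 2, 466.1 to 664 on day 8, 996 to 4723 after the second dose and 137 to 634 in untreated tumours. Of 8 macrophage markers 5 were called higher on day 2 (2 with TMM), shares near those of all tested probes, with sums of 14362 to 50297 on day 2, 8822 to 14251 on day 8, 9904 to 33405 after the second dose and 2048 to 21725 in untreated tumours. The 5 fibroblast markers on the panel (COL1A1, COL3A1, PDGFRA, PDGFRB and PDPN) summed to 26569 to 106672 on day 2, 85647 to 199430 on day 8, 56683 to 146701 after the second dose and 45182 to 294180 in untreated tumours. On day 2, 0 of them were called with housekeeping scaling and 2 called lower with TMM. The 4 Schwann and neural markers summed to 548 to 1906 on day 2, 3888 to 5403 on day 8, 377 to 4981 after the second dose and 2106 to 7388 in untreated tumours, and 2 were called lower on day 2 under both scalings. SOX10, which marks Schwann lineage, was not above the negative controls in any treated tumour, of which 7 of the 10 bore a nerve sheath label. It was above them in some untreated tumours, and the cause was not tested. Endothelial markers, 4 on the panel, summed to 1765 to 4748 on day 2, 5306 to 10228 on day 8, 1554 to 7253 after the second dose and 2839 to 12539 in untreated tumours. On day 2, 0 of them were called with housekeeping scaling and 1 called lower with TMM. Of 4 epithelial and skin markers only CLDN1 was called on day 2, and of 3 proliferation markers none was. No marker had a count of 0 in any tumour. The part of these cell types in the levels of the 9 genes was not tested.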

How the data were processed

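RNA of 17 tumours was hybridized to the panel. Per the file headers, the raw files give each probe's count before normalization. The authors' normalized signal was used only as an alternative. Its scaling followed the housekeeping probes, as the product of its factor and their geometric mean was 636 to 639, and its other steps are not stated by the labels. A further normalized table of 17 columns matched no label and was not used. The probe count was tested with edgeR 4.0.16 in R 4.3.3 (quasi-likelihood, robust), the 4 groups in 1 model and the housekeeping geometric mean as library size. A probe was tested if it passed the mean plus 2 SD of the negative controls in at least 3 samples. That kept 724 of 780 probes, and all 9 members. Probes with an adjusted p under 0.05 were called. The SE is the absolute log2 difference over the square root of F. TMM was the second scaling, with limma 3.58.1, DESeq2 1.42.0 and other settings as alternatives. The method was tested on simulated counts whose true scale was set by the housekeeping probes, with changes in both directions. That test therefore cannot judge the choice of scaling. Genes outside the set were named if called and reaching 50 normalized counts in 1 group, up to 5 in each direction, and as nearest probe by r; 1 gene of the wider list is not reported here. The members and lists were chosen with earlier results of these data known. All 9 symbols matched the RefSeq gene table of UU_Cfam_GSD_1.0, and the probe's transcript was listed there for 2, LGALS3 and THY1. Replicate letters of second-dose and untreated tumours gave correlations of 0.33, 0.20, 0.28 and 0.39 between deviations, all over 0.1. The labels name nothing shared by a letter, and the dogs differ.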

Additional observations from a re-analysis of the deposited data

Results flagged for a closer look

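In the comparison of day 8 with day 2, the difference between the times was itself tested and was past the threshold for some of the other matrix and adhesion genes. The log2 differences, with edgeR and housekeeping scaling, were 3.85 for CLDN1, -3.27 for PLAUR, -2.21 for SMAD3, -1.81 for ITGA2B and -1.38 for PIK3CA. The median of all tested probes was -1.13 with this scaling, where 19.2% were called lower and 0.414% higher. With TMM, CLDN1 and PLAUR were called, while SMAD3, ITGA2B and PIK3CA were not. Raw counts of SMAD3 were 249 to 589 on day 2 and 252 to 402 on day 8. Those of PIK3CA were 88 to 436 on day 2 and 251 to 384 on day 8. The size for ITGA2B is uncertain, since its counts did not pass the mean plus 2 SD of the negative controls in any day 8 tumour. None of the genes named here was still called without any 1 of the 3 day 8 tumours or with sarcoma type as a covariate. Only 18 groups of member values were tested by Dixon's criterion, with 0 flags. With so few tumours in a group it can miss a tumour that stands apart. It therefore does not lessen the dependence on single tumours described above.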

How the results depend on the processing

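The counts of other matrix and adhesion genes called, of 51, depended on scaling, tumour type and single tumours. For day 2 against untreated, where 8 were called, TMM and median-of-ratios scaling each gave 22, DESeq2 27, a filter in every sample 4, leaving out the low-count samples 4, the replicate block 5, sarcoma type as a covariate 1 and nerve sheath tumours alone 0. TMM without the low-count samples gave 14 and TMM with sarcoma type gave 0, both chosen after seeing the data. Leaving out 1 replicate gave 4 to 10. The calls over all tested probes moved as well. They were 346 higher and 19 lower of 724 in the main fit, 170 and 114 with TMM. DESeq2 gave 185 and 163, and the replicate block 326 and 9. A filter in every sample gave 143 and 14 of 358, and leaving out the low-count samples 264 and 8 of 722. Sarcoma type gave 135 and 0 of 724, and nerve sheath tumours alone 37 and 0 of 705. For the second dose against untreated 2 were called. There TMM and median-of-ratios gave 6 each, DESeq2 15, a filter in every sample 1 and the replicate block 1. Sarcoma type, nerve sheath tumours alone and TMM with sarcoma type gave 0 each, with 1 to 6 when 1 replicate was left out. Over all probes the main fit called 241 higher and 3 lower of 724. TMM called 156 and 36, and DESeq2 170 and 112. Sarcoma type gave 91 and 1 of 724, and nerve sheath tumours alone 0 and 0 of 705. For the comparisons between treated groups that follow, calls over all probes per setting are not given. For day 8 against day 2, where 6 were called, median-of-ratios and limma on the deposited values gave 3 each, DESeq2 13, background subtraction 2, leaving out the low-count samples 1, TMM without them 2, and sarcoma type, nerve sheath tumours alone and TMM with sarcoma type 0 each, with 0 to 5 when 1 replicate was left out. For the second dose against the first, where 0 were called, DESeq2 gave 1 and leaving out 1 replicate gave 0 to 1. For the second dose against day 8, where 0 were called, TMM and median-of-ratios gave 1 each, DESeq2 3 and leaving out 1 replicate 0 to 5. The count of 0 for day 8 against untreated, and the count of 0 members by tumour type, were the same in every setting run. Of the 27 member differences from untreated, 9 changed sign in at least 1 setting. Of the 8 that were called, 1 did, NPNT on day 2, at -0.072 with TMM without the low-count samples. The other 8 were not called: ADAMTS2 in all 3 comparisons (as low as -0.43 on day 2, -0.10 on day 8 and -0.28 after the second dose), THY1 on day 8 (up to 0.44), PTK2 on day 8 (down to -0.30), NRP1 on day 8 (down to -0.31) and after the second dose (up to 0.47), and NPNT after the second dose (0.094). The causes were not tested. Depth limits NPNT most, with raw counts of 4 to 91.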
